A study of Mus musculus with 8 samples.

Results

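The 10 genes described here encode secreted mediators of innate inflammation and were given as a list: the interleukin-1 genes Il1a and Il1b with their antagonist gene Il1rn, the related Il18 and Il33, Tnf, the interleukin-6 family genes Il6, Osm and Lif, and Tgfb1. All 10 were found among the 22180 genes with a probe set of exactly 1 gene symbol, each through 1 probe set. Brain RNA was measured on 8 Affymetrix arrays, 2 for each of 4 groups. Every group was immunized with MOG, a myelin protein, to induce autoimmune inflammation of the central nervous system, and brains were taken at day 14, labelled as the disease maximum. The groups were C57BL/6Je/e mice given NDP-MSH, C57BL/6Je/e mice given PBS, wild-type mice given NDP-MSH and wild-type mice given PBS. C57BL/6Je/e mice (e/e below) were told from wild-type mice by their yellow coat. The e/e allele is a loss-of-function allele of Mc1r, the melanocortin receptor of pigment cells, in every cell of the mouse. NDP-MSH is a stable melanocortin receptor agonist modelled on alpha-MSH, of which the NDP-MSH groups received 5 µg per mouse by vein at day 8, day 10 and day 12, and PBS is buffered saline. The labels give neither the age of the mice nor whether the 2 replicates of a group were separate animals, so the errors measure the spread between these samples.

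IL-1α, IL-1β and TNF are released early by activated macrophages, microglia and other cells, and act through receptors that lead to NF-kB. IL-1β and IL-18 are made as inactive precursors that caspase-1 cleaves, and the IL-1 receptor antagonist encoded by Il1rn occupies the IL-1 receptor without signalling. IL-6, oncostatin M and LIF signal through a shared receptor chain, gp130, to STAT3, and TGF-β1 signals through SMAD proteins and restrains T cells and microglia.

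In build GRCm38.p6 the RefSeq gene Il1a lies at chr2:129299609-129310186 and Il1b at chr2:129364569-129371164, with Il1rn apart from them at chr2:24336860-24351491. Osm (chr11:4236785-4241026) and Lif (chr11:4257568-4272514) are also close to each other. Tnf lies at chr17:35199367-35202007, Il6 at chr5:30013114-30019975, Il18 at chr9:50554700-50581841, Il33 at chr19:29925113-29960718 and Tgfb1 at chr7:25687002-25705077.

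Il1b, Il1rn and Tnf ranged widely across the arrays, as did Il1a and Tgfb1, whose sequences are not shown, and Il6 varied little. The upstream sequences of 4 of the 10 genes, Il1b, Il1rn, Tnf and Il6, are shown. They come from RefSeq promoters of the same build, which held 9 of the 10 genes (Osm is named only), and are trimmed to the bases outside the gene as RefSeq places it. Il1b is from chr2:129371165-129371389 (minus strand), Il1rn from chr2:24336610-24336859 (plus strand), Tnf from chr17:35202008-35202257 (minus strand) and Il6 from chr5:30012864-30013113 (plus strand). Capitals mark matches on either strand to the NF-kB consensus (kB), to the AP-1 motif TGANTCA, to the STAT motif TTCNNNGAA or to the cAMP response motif TGACGTCA.
Il1b: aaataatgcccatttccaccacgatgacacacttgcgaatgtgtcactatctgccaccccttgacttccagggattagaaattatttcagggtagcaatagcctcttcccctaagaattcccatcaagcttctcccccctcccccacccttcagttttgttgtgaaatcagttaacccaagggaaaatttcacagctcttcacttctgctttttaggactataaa
Il1rn: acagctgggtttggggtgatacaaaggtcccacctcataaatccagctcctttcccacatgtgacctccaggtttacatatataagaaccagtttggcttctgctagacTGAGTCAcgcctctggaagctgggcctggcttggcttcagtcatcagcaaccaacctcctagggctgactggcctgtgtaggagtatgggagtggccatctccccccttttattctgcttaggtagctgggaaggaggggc
Tnf: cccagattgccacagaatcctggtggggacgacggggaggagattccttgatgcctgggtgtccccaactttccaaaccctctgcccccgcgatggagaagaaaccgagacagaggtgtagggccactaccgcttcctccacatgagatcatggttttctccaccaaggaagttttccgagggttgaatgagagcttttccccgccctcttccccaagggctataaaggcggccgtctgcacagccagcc
Il6: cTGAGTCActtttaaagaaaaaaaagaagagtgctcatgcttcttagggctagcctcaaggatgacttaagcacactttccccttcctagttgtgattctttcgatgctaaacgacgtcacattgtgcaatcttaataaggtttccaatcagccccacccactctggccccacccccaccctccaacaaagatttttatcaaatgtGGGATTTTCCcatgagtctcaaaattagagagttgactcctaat

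In the 250 bases before the start, the kB consensus was matched in Il6, Lif and Tgfb1, against 7.25% of all 32851 RefSeq promoters of that length. AP-1 was matched in Il1a, Il1rn, Il6 and Lif, against 6.75% of promoters. Il1rn had 3 promoters and Il33 had 2, and a gene counted as matched with a match in any of them. For Il1rn only the promoter shown held the match. No window of a cytokine gene matched TTCNNNGAA (7.02% of all promoters) or TGACGTCA (1.55%). The Il1b and Tnf windows matched none of the 4 motifs, which says only that these letters are not there. A match is a description of letters and not a binding site.

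The deposited values are centred gene by gene on the median of the 8 arrays and are taken as log2, so they give differences between arrays but no levels. A numerical step left in the values places Il18 and Il33 at 8 or above before centring on all arrays and the other 8 cytokine genes between 4 and 8 on at least 1 array. By the same reading, 4 of 4 neuronal, 6 of 6 astrocyte and 4 of 5 oligodendrocyte marker genes were at 8 or above, as were 0 of 8 neutrophil and 0 of 6 T cell marker genes.

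Several arrays stood apart in ways that touch these genes. The Y-linked gene Eif2s3y was at 2.78 (e/e NDP-MSH 1), 2.87 (e/e NDP-MSH 2) and 2.04 (e/e PBS 2), against -0.02 in e/e PBS 1 and between -0.19 and 0.02 in wild-type arrays. Xist, expressed from the inactive X of females, was at -4.46 (e/e NDP-MSH 1) and -4.56 (e/e NDP-MSH 2), against -0.82 to 0.67 elsewhere, so e/e PBS 2 carried both Y-linked and Xist signal. The same array lay beside the wild-type arrays in the inflammatory genes described below, and above all of them in Il1b, Il1rn and Tnf. Whether e/e PBS 2 holds RNA of more than 1 mouse, or of another group, was not tested and cannot be settled from these files, and every e/e PBS value rests partly on it. The median of 7 cerebellar genes was -2.60 and -1.89 in wild-type NDP-MSH 1 and 2, against -0.09 to 0.35 in the other arrays. The median of 4 pituitary genes was 5.09 in wild-type NDP-MSH 1 and at most 0.15 elsewhere. The part of these differences in the cytokine results was not tested beyond leaving out single arrays. Leaving out 1 array cannot test the cerebellar difference, which was present in both wild-type NDP-MSH arrays.

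The cytokine genes split into 5 whose range over the arrays was above the 90th percentile of all genes (0.66) and 5 below it, as the plot of values by array shows. Il1b ranged over 3.02 log2 units across the 8 arrays, Il1a over 1.75, Il1rn over 1.19, Tgfb1 over 0.98 and Tnf over 0.91. The median range over all genes was 0.33, and the 5 wide cytokine genes exceeded at least 95.8% of all genes. Il33 ranged over 0.53, Lif over 0.38, Il18 over 0.37, Il6 over 0.30 and Osm over 0.15. A narrower range was found in 82.1% of all genes for Il33, 60.6% for Lif, 59.6% for Il18, 42.4% for Il6 and 8.41% for Osm, so Osm and Il6 alone of the 10 ranged less than the median gene.

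**Figure D1:**
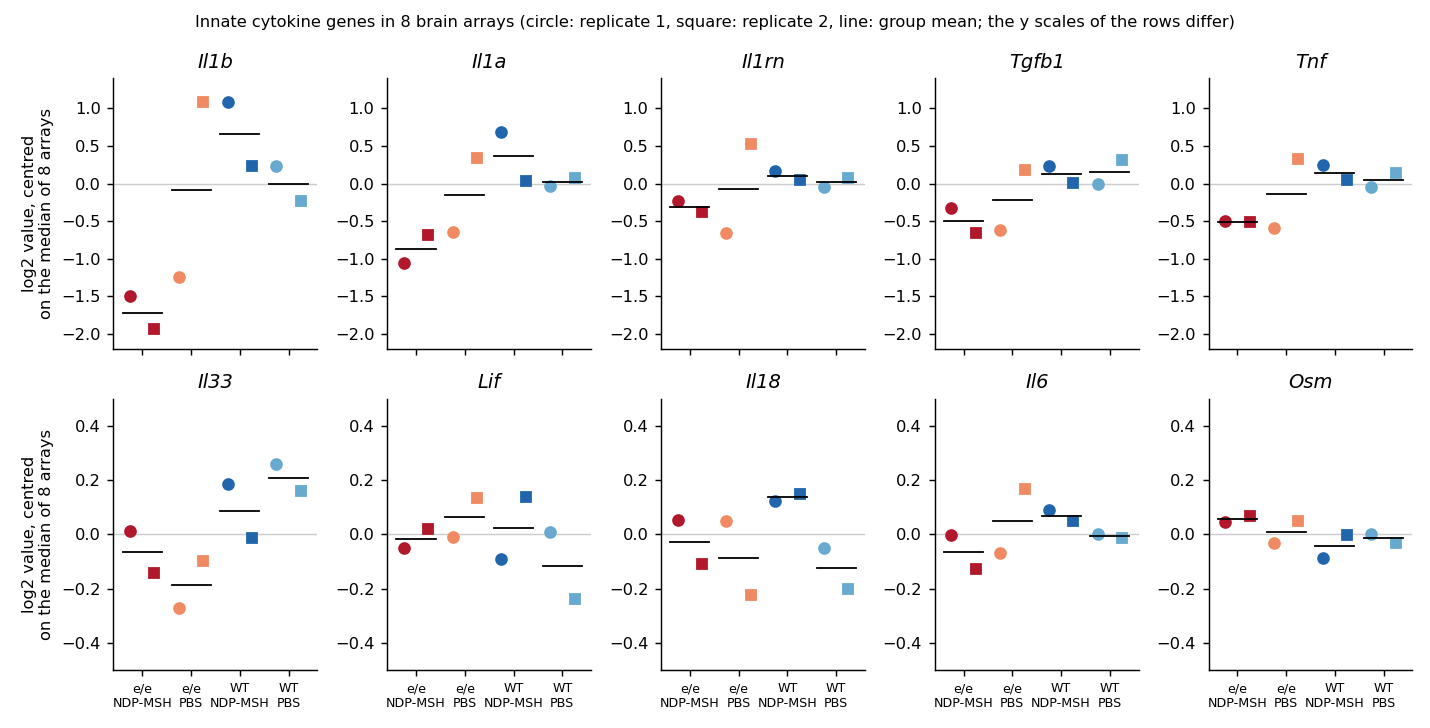
Centred log2 values of the 10 cytokine genes (y axis) in the 2 arrays of each group (x axis), with circles for replicate 1, squares for replicate 2 and a line at the group mean. In the upper row the e/e NDP-MSH arrays and e/e PBS 1 lie low. There e/e PBS 2 lies within the range of the wild-type arrays or, for Il1b, Il1rn and Tnf, above it. Il1b lies at -1.50, -1.94, -1.25 and 1.09 in these 4 e/e arrays.

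Among the IL-1 genes, Il1b, the main secreted IL-1 agonist, had values of -1.50 and -1.94 in e/e mice given NDP-MSH, -1.25 and 1.09 in e/e mice given PBS, 1.08 and 0.24 in wild-type mice given NDP-MSH, and 0.24 and -0.24 in wild-type mice given PBS. Each pair here and below gives replicate 1 and then replicate 2. Il1b was thus low in 3 of 4 e/e arrays and at its highest in the fourth, and the 2 e/e PBS arrays differed by 2.34. Il1a, whose product also acts from the membrane of the producing cell and as an alarmin, had values of -1.06 and -0.68 in e/e mice given NDP-MSH, -0.65 and 0.34 in e/e mice given PBS, 0.69 and 0.03 in wild-type mice given NDP-MSH, and -0.03 and 0.08 in wild-type mice given PBS. The same 3 e/e arrays were low, and wild-type NDP-MSH 1 was highest. Il1rn, the antagonist gene, had values of -0.23 and -0.38 in e/e mice given NDP-MSH, -0.66 and 0.53 in e/e mice given PBS, 0.17 and 0.04 in wild-type mice given NDP-MSH, and -0.04 and 0.07 in wild-type mice given PBS. Here e/e PBS 1 was below both e/e NDP-MSH arrays.

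Tnf, which encodes the trimeric cytokine cleaved from the cell surface by ADAM17, had values of -0.50 and -0.51 in e/e mice given NDP-MSH, -0.59 and 0.32 in e/e mice given PBS, 0.24 and 0.04 in wild-type mice given NDP-MSH, and -0.04 and 0.14 in wild-type mice given PBS. Tgfb1 had values of -0.32 and -0.66 in e/e mice given NDP-MSH, -0.62 and 0.18 in e/e mice given PBS, 0.24 and 0.00 in wild-type mice given NDP-MSH, and 0.00 and 0.32 in wild-type mice given PBS. For both genes e/e PBS 1 was low like the e/e NDP-MSH arrays. In e/e PBS 2, Tnf lay above all wild-type arrays and Tgfb1 within their range. In whole brain RNA, fewer cells of a producing type and less RNA per cell cannot be told apart.

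Il33, which encodes a nuclear alarmin that mouse oligodendrocytes and astrocytes make, had values of 0.01 and -0.14 in e/e mice given NDP-MSH, -0.27 and -0.10 in e/e mice given PBS, 0.19 and -0.01 in wild-type mice given NDP-MSH, and 0.26 and 0.16 in wild-type mice given PBS. The e/e PBS arrays were both below the wild-type PBS arrays, and the NDP-MSH arrays of the genotypes overlapped. Il18, a caspase-1 substrate that drives interferon-γ production, had values of 0.06 and -0.11 in e/e mice given NDP-MSH, 0.05 and -0.22 in e/e mice given PBS, 0.13 and 0.15 in wild-type mice given NDP-MSH, and -0.05 and -0.20 in wild-type mice given PBS. Both wild-type NDP-MSH arrays were above all other arrays.

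The interleukin-6 family genes differed less between arrays than the IL-1 genes and Tnf did. Il6 had values of just under 0 and -0.13 in e/e mice given NDP-MSH, -0.07 and 0.17 in e/e mice given PBS, 0.09 and 0.05 in wild-type mice given NDP-MSH, and 0.00 and -0.01 in wild-type mice given PBS. Lif, which encodes leukemia inhibitory factor, had values of -0.05 and 0.02 in e/e mice given NDP-MSH, -0.01 and 0.14 in e/e mice given PBS, -0.09 and 0.14 in wild-type mice given NDP-MSH, and 0.01 and -0.24 in wild-type mice given PBS. Osm, which encodes oncostatin M of myeloid cells, had values of 0.05 and 0.07 in e/e mice given NDP-MSH, -0.03 and 0.05 in e/e mice given PBS, -0.09 and 0.00 in wild-type mice given NDP-MSH, and 0.00 and -0.03 in wild-type mice given PBS. At these small ranges the order of the groups is not separated from the gaps within groups, with these exceptions. Il6 lay higher in both wild-type NDP-MSH than in both wild-type PBS arrays. It lay lower in both e/e NDP-MSH than in both wild-type NDP-MSH arrays. Osm lay higher in both e/e NDP-MSH arrays than in every wild-type array.

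The 2 arrays of the e/e PBS group lay further apart in these genes than those of other groups. The median absolute gap between the 2 arrays of a group over the 10 cytokine genes was 0.15 in e/e NDP-MSH, 0.54 in e/e PBS, 0.20 in wild-type NDP-MSH and 0.13 in wild-type PBS. Over all 22180 genes the same gap was 0.10, 0.10, 0.12 and 0.09 in that order. In e/e PBS, 9 of the 10 cytokine genes were higher in array 2 than in array 1, with Il18 the exception.

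The first comparison that the study names asks what NDP-MSH changed in wild-type brains. Cytokine genes were slightly higher after NDP-MSH in 7 of 10, with a median log2 difference of 0.09 beside 0.02 over all genes. By limma 0 of 10 passed an adjusted p of 0.05, where 0.00451% of all genes rose and 0.171% fell. At an unadjusted p under 0.05 there were 0 of 10, against 12.3% of all genes. The largest difference was that of Il1b at 0.66 ± 0.67 (SE, 95% interval -0.90 to 2.22, adjusted p = 0.719), followed by Il1a at 0.34 ± 0.33 (adjusted p = 0.709). Without wild-type NDP-MSH 1, the array with pituitary signal, Il1b lay at 0.24 and Il1a at 0.01. Without wild-type NDP-MSH 2, they lay at 1.08 and 0.67. Il18 had the smallest p, at 0.26 ± 0.11 (limma, adjusted p = 0.405). It lay at 0.27 without wild-type NDP-MSH 1 and at 0.25 without wild-type NDP-MSH 2. Il6 (0.08 ± 0.10) and Il18 did not overlap between the groups, both higher, a separation that 25.3% of all genes showed. Tnf (0.10 ± 0.25), Il1rn (0.09 ± 0.32), Lif (0.14 ± 0.12), Tgfb1 (-0.04 ± 0.26), Osm (-0.03 ± 0.07) and Il33 (-0.12 ± 0.11) all had intervals that include 0. Tnf, Tgfb1 and Osm changed sign when 1 wild-type array was left out. Between these groups 7 of 7 cerebellar genes passed and fell, where 0.171% of all genes fell. Oligodendrocyte marker genes were lower in 5 of 5 (median -0.33). Both wild-type NDP-MSH arrays were low in these genes, so their part cannot be told apart from that of NDP-MSH.

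The second named comparison asks the same of e/e mice. Cytokine genes were lower after NDP-MSH in 7 of 10, with a median of -0.18 beside 0.01 over all genes. Il1b differed by -1.63 ± 0.67 (interval -3.19 to -0.07; -0.995 after quantile normalization) and Il1a by -0.71 ± 0.33 (interval -1.49 to 0.06), and these were the 2 genes whose groups did not overlap, a separation in that direction that 14.3% of all genes showed. Tnf differed by -0.37 ± 0.25, Tgfb1 by -0.27 ± 0.26 and Il1rn by -0.24 ± 0.32. Il6 (-0.11 ± 0.10), Lif (-0.08 ± 0.12), Osm (0.05 ± 0.07), Il18 (0.06 ± 0.11) and Il33 (0.12 ± 0.11) lay near 0. By limma 0 of 10 passed (adjusted p near 1 for each) and 1, Il1b, had an unadjusted p under 0.05, and 0% of all genes passed in either direction (789, or 3.56%, at an unadjusted p under 0.05).

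These values turned on which e/e PBS array was used, as the plot of e/e differences by PBS array shows. Without e/e PBS 1, Il1b differed by -2.80, Il1a by -1.21, Il1rn by -0.83, Tnf by -0.83 and Tgfb1 by -0.67. The e/e PBS group then kept 1 array, so the errors of that fit measured the spread in the other groups. Without e/e PBS 2, Il1b differed by -0.47 and Il1a by -0.22, while Il1rn (0.36), Tgfb1 (0.13) and Tnf (0.08) turned positive. Eif2s3y was high in e/e PBS 2 and the e/e NDP-MSH arrays and low in e/e PBS 1. The wide cytokine genes were low in e/e PBS 1 and the e/e NDP-MSH arrays. The part of sex in the cytokine values was not tested. Single arrays cannot settle it, and e/e PBS 2 carried both Y-linked and Xist signal.

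**Figure D2:**
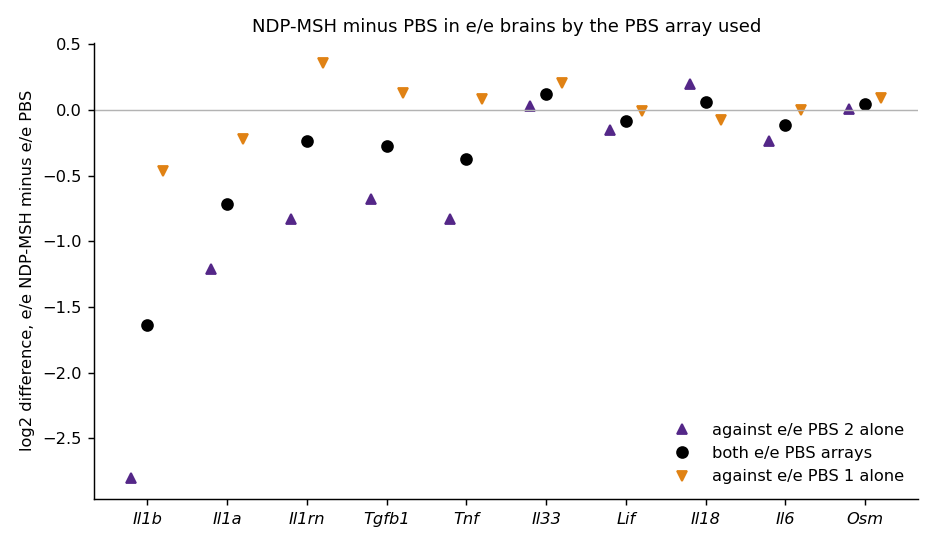
Log2 difference of e/e NDP-MSH minus e/e PBS (y axis) for each cytokine gene (x axis), with both e/e PBS arrays (black circles), against e/e PBS 2 alone (purple triangles) and against e/e PBS 1 alone (orange triangles). Il1b lies at -1.63 with both, -2.80 against e/e PBS 2 and -0.47 against e/e PBS 1, and Il1rn, Tgfb1 and Tnf lie above 0 against e/e PBS 1.

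The NDP-MSH effect in wild-type brains was then set against that in e/e brains, as wild-type minus e/e. Il1b gave 2.29 ± 0.94 (interval 0.09 to 4.50, adjusted p = 0.633; 1.48 after quantile normalization) and Il1a 1.05 ± 0.47 (interval -0.04 to 2.15, adjusted p = 0.65), the 2 largest differences. Tnf gave 0.47 ± 0.36, Il1rn 0.33 ± 0.45, Tgfb1 0.24 ± 0.36, Lif 0.22 ± 0.16, Il18 0.20 ± 0.16 and Il6 0.19 ± 0.14, and Osm (-0.08 ± 0.10) and Il33 (-0.24 ± 0.15) lay on the other side of 0. By limma 0 of 10 passed, 1 had an unadjusted p under 0.05, and 0% of all genes passed (1711, or 7.71%, at an unadjusted p under 0.05). Leaving out e/e PBS 1 gave 3.46 for Il1b, leaving out e/e PBS 2 gave 1.13, neither past the threshold (adjusted p = 0.0851 and 0.54).

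Under PBS, the e/e group was set against the wild-type group. Il33 was lower in both e/e PBS arrays, by -0.40 ± 0.11 (interval -0.64 to -0.15), which had the smallest p of the 10 but did not pass over all genes (adjusted p = 0.887). This separation in this direction was shown by 16.7% of all genes and by no other cytokine gene. The oligodendrocyte marker median was -0.06 and 0.14 in e/e PBS 1 and 2 against -0.07 and 0.06 in wild-type PBS, and the astrocyte median was -0.01 and -0.04 against 0.05 and 0.09. Their part in the Il33 difference was not tested. Tgfb1 differed by -0.38 ± 0.26, Tnf by -0.18 ± 0.25, Il1a by -0.18 ± 0.33, Il1rn by -0.08 ± 0.32 and Il1b by -0.08 ± 0.67. Lif (0.18 ± 0.12), Il6 (0.06 ± 0.10), Il18 (0.04 ± 0.11) and Osm (0.02 ± 0.07) were on the other side of 0. By limma 0 of 10 passed, 1 had an unadjusted p under 0.05, and 0% of all genes passed (1088, or 4.91%, at an unadjusted p under 0.05). With e/e PBS 1 left out the Il1b difference was 1.09, with e/e PBS 2 left out -1.25, so its sign was that of the e/e PBS array kept.

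The 2 NDP-MSH groups were compared after the values had been seen, since the e/e NDP-MSH arrays lay low and close together. Of the 10 cytokine genes 9 were lower in e/e NDP-MSH than in wild-type NDP-MSH, with a median of -0.29 beside -0.01 over all genes. The groups did not overlap for 7 lower genes (23.6% of all genes), Il1a, Il1b, Il1rn, Tnf, Tgfb1, Il6 and Il18, and for 1 higher gene, Osm (20.6% of all genes). Il1b differed by -2.37 ± 0.67 (interval -3.93 to -0.81, adjusted p = 0.177; -1.56 after quantile normalization), Il1a by -1.23 ± 0.33 (interval -2.00 to -0.46, adjusted p = 0.162), Tnf by -0.65 ± 0.25, Tgfb1 by -0.61 ± 0.26 and Il1rn by -0.41 ± 0.32. By limma 0 of 10 passed, where 0.266% of all genes rose and 0.0721% fell. At an unadjusted p under 0.05 there were 4 of 10, against 14.2% of all genes. With either e/e PBS array left out of the fit, where they bear only on the estimate of the spread, 3 of 10 fell: Il1b (adjusted p = 0.0156), Tnf (0.0313) and Il1a (0.0431). In that fit 1.45% of all genes fell and 471 genes passed in all, against 75 with all arrays. With only the 4 NDP-MSH arrays in the fit 2 fell, Il1b (0.0154) and Tnf (0.0361), where 1.57% of all genes fell. Without any 1 NDP-MSH or wild-type PBS array 0 passed. Sex-linked, cerebellar and oligodendrocyte signals also differ between these groups, in both arrays of each, so their part cannot be told apart from that of genotype. Of the oligodendrocyte marker genes 5 of 5 were higher in e/e NDP-MSH (median 0.51). Pituitary signal was high in wild-type NDP-MSH 1 only, and its part was not tested beyond leaving out single arrays.

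**Figure D3:**
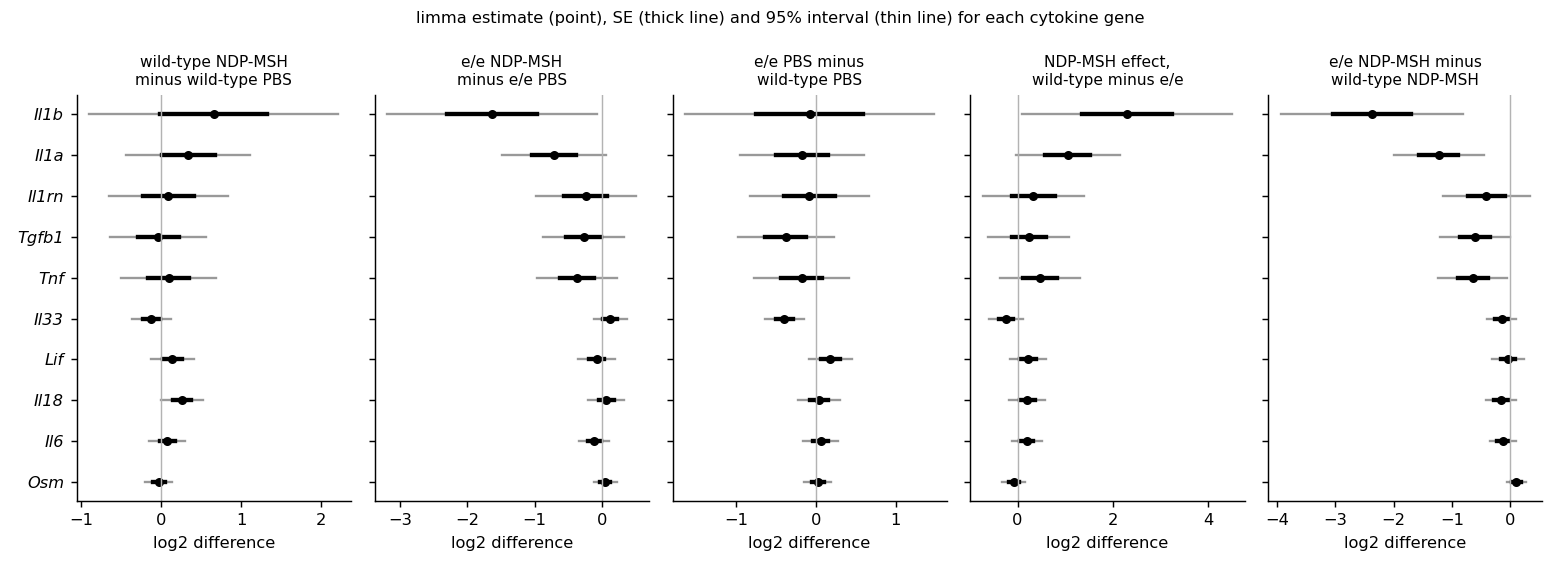
Log2 differences (x axis) of the 10 cytokine genes (rows) in the 5 comparisons (panels), with limma estimates as points, SE as thick lines and 95% intervals as thin lines. Il1b has the widest intervals, and in the comparison of the NDP-MSH groups the intervals of Il1b, Il1a, Tnf and Tgfb1 lie below 0.

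Receptor and processing genes for these cytokines were read from a list of 20, of which 19 were measured. In the wild-type NDP-MSH comparison 9 were higher and 10 lower (median -0.03), and 0 passed. The smallest p values were those of Osmr, the oncostatin M receptor chain, at 0.52 ± 0.21 (adjusted p = 0.394) and Il1r2, the IL-1 decoy receptor, at 0.42 ± 0.17 (adjusted p = 0.379). In e/e mice 17 of 19 were lower after NDP-MSH (median -0.20) and 0 passed, with the smallest p for Osmr at -0.68 ± 0.21 and the signalling receptor Il1r1 at -0.29 ± 0.12. This count rested on e/e PBS 2, against which alone the list median was -0.42, while against e/e PBS 1 alone it was -0.03 with 11 of 19 lower. Osmr lay at -1.07 against e/e PBS 2 and at -0.30 against e/e PBS 1. The difference of effects was above 0 for 15 of 19 (median 0.24) and 0 passed, where Osmr gave 1.20 ± 0.30 (adjusted p = 0.448) and Il1r2 0.79 ± 0.24 (adjusted p = 0.53). Osmr had values of -0.52 and -0.68 in e/e mice given NDP-MSH, -0.31 and 0.47 in e/e mice given PBS, 0.53 and 0.50 in wild-type mice given NDP-MSH, and -0.02 and 0.02 in wild-type mice given PBS. Its ligand gene Osm stayed within 0.15 over the same arrays. Under PBS the TNF receptor gene Tnfrsf1b lay at -0.55 ± 0.19 and Tgfbr2, a TGF-β receptor chain, at -0.29 ± 0.11, e/e minus wild-type, neither past the threshold (adjusted p = 0.971 for both). Between the NDP-MSH groups 16 of 19 were lower in e/e (median -0.38) and 0 passed, with Osmr at -1.12 ± 0.21 (adjusted p = 0.0921) and Tnfrsf1a, the main TNF receptor, at -0.76 ± 0.16 (adjusted p = 0.109).

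Target genes of NF-kB, the pathway below IL-1 and TNF, lay low in the same 3 e/e arrays as the wide cytokine genes, with list medians of -0.25 and -0.26 in e/e NDP-MSH 1 and 2 and -0.27 in e/e PBS 1, against 0.01 to 0.21 elsewhere. Of 14, 8 were higher in wild-type NDP-MSH than wild-type PBS (median 0.03), 13 were lower in e/e NDP-MSH than e/e PBS (median -0.26) and 13 were lower in e/e NDP-MSH than wild-type NDP-MSH (median -0.40), with 0 past the threshold in each. Ptgs2, the inducible cyclooxygenase, lay at 0.53 ± 0.16 (adjusted p = 0.292) and the chemokine gene Cxcl1 at 0.41 ± 0.18 in the wild-type comparison. In e/e mice Tnfaip2 lay at -0.99 ± 0.34 and the adhesion molecule gene Vcam1 at -0.22 ± 0.10. Against e/e PBS 2 alone the list median was -0.45 and Tnfaip2 lay at -1.58, while against e/e PBS 1 alone the median was -0.07 with 8 of 14 lower and Tnfaip2 lay at -0.39. Under PBS Vcam1 lay at -0.36 ± 0.10 and Ptgs2 at 0.47 ± 0.16, e/e minus wild-type, with 9 of 14 lower and 0 past the threshold. From e/e PBS 1 alone 12 of 14 were lower (median -0.34), while from e/e PBS 2 alone 10 of 14 were higher (median 0.19). Vcam1 (-0.49 and -0.23) and Ptgs2 (0.55 and 0.38) kept their signs from either array. The difference of effects was above 0 for 13 of 14 (median 0.29) with 0 past the threshold, where Ptgs2 gave 0.73 ± 0.22 and the monocyte chemokine gene Ccl2 1.58 ± 0.77, and between the NDP-MSH groups Vcam1 gave -0.60 ± 0.10 (adjusted p = 0.0673) and Relb, an NF-kB subunit, -0.26 ± 0.07.

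STAT3 target genes, below the gp130 receptors, had list medians of -0.44 and -0.41 in e/e NDP-MSH 1 and 2 and of -0.36 in e/e PBS 1, against -0.01 to 0.26 in the other 5 arrays, e/e PBS 2 among them. Of 12, 10 were higher in the wild-type NDP-MSH comparison (median 0.09), 12 were lower in the e/e comparison (median -0.40) and 12 were lower in e/e NDP-MSH than wild-type NDP-MSH (median -0.69). In the e/e comparison the median was -0.72 against e/e PBS 2 alone and -0.15 against e/e PBS 1 alone, with 11 of 12 lower in the second case. Between the NDP-MSH groups, compared after the values had been seen, 1 of 12 fell, where 0.0721% of all genes fell. This was Lrg1, a secreted acute-phase glycoprotein gene, at -0.77 ± 0.10 (limma, adjusted p = 0.0364). It lost that call in 7 of 16 alternatives, which were quantile normalization and leaving out any 1 NDP-MSH or wild-type PBS array (adjusted p up to 0.266). Lrg1 had values of -0.20 and -0.31 in e/e mice given NDP-MSH, 0.17 and 0.04 in e/e mice given PBS, 0.63 and 0.40 in wild-type mice given NDP-MSH, and -0.04 and -0.12 in wild-type mice given PBS. Unlike Il1b, it did not separate the 2 e/e PBS arrays widely. The difference of effects was above 0 for 12 of 12 (median 0.65) and 0 passed. For Lrg1 it was 0.96 ± 0.14 (adjusted p = 0.248), and that of Junb, a growth-induced AP-1 gene, was 0.53 ± 0.13. In wild-type mice Lrg1 lay at 0.60 ± 0.10 (adjusted p = 0.117) and the transcription factor gene Cebpb at 0.41 ± 0.15. In e/e mice Junb lay at -0.38 ± 0.09, with -0.39 against e/e PBS 2 and -0.37 against e/e PBS 1, and Cebpd at -0.50 ± 0.14, with -0.72 and -0.29. Under PBS Lcn2, lipocalin-2 of reactive astrocytes, lay at -0.80 ± 0.29 (-1.23 from e/e PBS 1 alone, -0.37 from e/e PBS 2 alone) and Lrg1 at 0.19 ± 0.10, e/e minus wild-type, where 8 of 12 were lower and 0 passed. From e/e PBS 1 alone 10 of 12 were lower (median -0.40), while from e/e PBS 2 alone 9 of 12 were higher (median 0.13). Junb between the NDP-MSH groups lay at -0.61 ± 0.09 (adjusted p = 0.0588).

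Of 5 TGF-β target genes measured, 2 were higher in the wild-type comparison (median -0.06), 4 in the e/e comparison (median 0.02) and 2 in e/e NDP-MSH against wild-type NDP-MSH (median -0.13), and 0 passed in any of the 5 comparisons. Tgfbi, an extracellular matrix gene induced by TGF-β, lay at -1.34 ± 0.65 in the e/e comparison (-2.46 against e/e PBS 2 alone, -0.22 against e/e PBS 1 alone) and at -2.28 ± 0.65 (adjusted p = 0.182) between the NDP-MSH groups. Smad7, the feedback inhibitor, lay at -0.26 ± 0.13 in the wild-type comparison and at 0.41 ± 0.13 between the NDP-MSH groups, where Tgfbi had the opposite sign. Bambi, a decoy receptor gene, lay at 0.16 ± 0.11 in the wild-type comparison and Pmepa1, another feedback inhibitor gene, at 0.05 ± 0.09 in the e/e comparison. Under PBS Tgfbi lay at -1.31 ± 0.65 (-2.43 from e/e PBS 1 alone, -0.19 from e/e PBS 2 alone) and Skil, a SMAD corepressor gene, at -0.22 ± 0.11, e/e minus wild-type. The difference of effects was 0.98 ± 0.93 for Tgfbi and -0.28 ± 0.19 for Smad7.

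Medians of monocyte and macrophage, T cell and interferon-γ-induced genes moved with the wide cytokine genes, as the plot of list medians shows. B cell and neutrophil medians did not. The median of 6 measured monocyte and macrophage genes was -1.13 and -0.97 in e/e NDP-MSH, -0.88 and 0.47 in e/e PBS, 0.48 and 0.21 in wild-type NDP-MSH, and -0.04 and 0.41 in wild-type PBS, and 6 of 6 were lower in the e/e comparison (5 of 6 against e/e PBS 1 alone). For 6 T cell genes it was -0.35 and -0.57 in e/e NDP-MSH, -0.27 and 0.10 in e/e PBS, 0.47 and 0.13 in wild-type NDP-MSH, and -0.01 and 0.23 in wild-type PBS. For 6 interferon-γ-induced genes it was -2.21 and -2.53 in e/e NDP-MSH, -1.93 and 0.81 in e/e PBS, 0.38 and 0.29 in wild-type NDP-MSH, and -0.25 and 0.78 in wild-type PBS. All 3 lists were low in the same 3 e/e arrays as Il1b. The part of these cells in the cytokine values was not tested, and levels of the markers cannot be read from centred values.

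Medians of the markers of B cells, neutrophils and resident microglia had another order. The median of 3 B cell genes was 0.01 and -0.07 in e/e NDP-MSH, -0.04 and -0.26 in e/e PBS, 0.06 and 0.02 in wild-type NDP-MSH, and 0.08 and 0.08 in wild-type PBS. The median of 6 microglia genes was -0.02 and -0.18 in e/e NDP-MSH, -0.12 and -0.18 in e/e PBS, 0.23 and 0.22 in wild-type NDP-MSH, and -0.02 and 0.14 in wild-type PBS. For 8 neutrophil genes it was 0.05 and -0.21 in e/e NDP-MSH, 0.11 and 0.05 in e/e PBS, 0.29 and -0.03 in wild-type NDP-MSH, and 0.09 and -0.17 in wild-type PBS. None of these 3 list medians was higher in e/e PBS 2 than in e/e PBS 1. In the e/e comparison, however, 8 of 8 neutrophil genes were lower (median -0.13), and 7 of 8 against either e/e PBS array alone. Of the microglia genes 3 of 6 were lower there, and of the B cell genes 0 of 3.

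**Figure D4:**
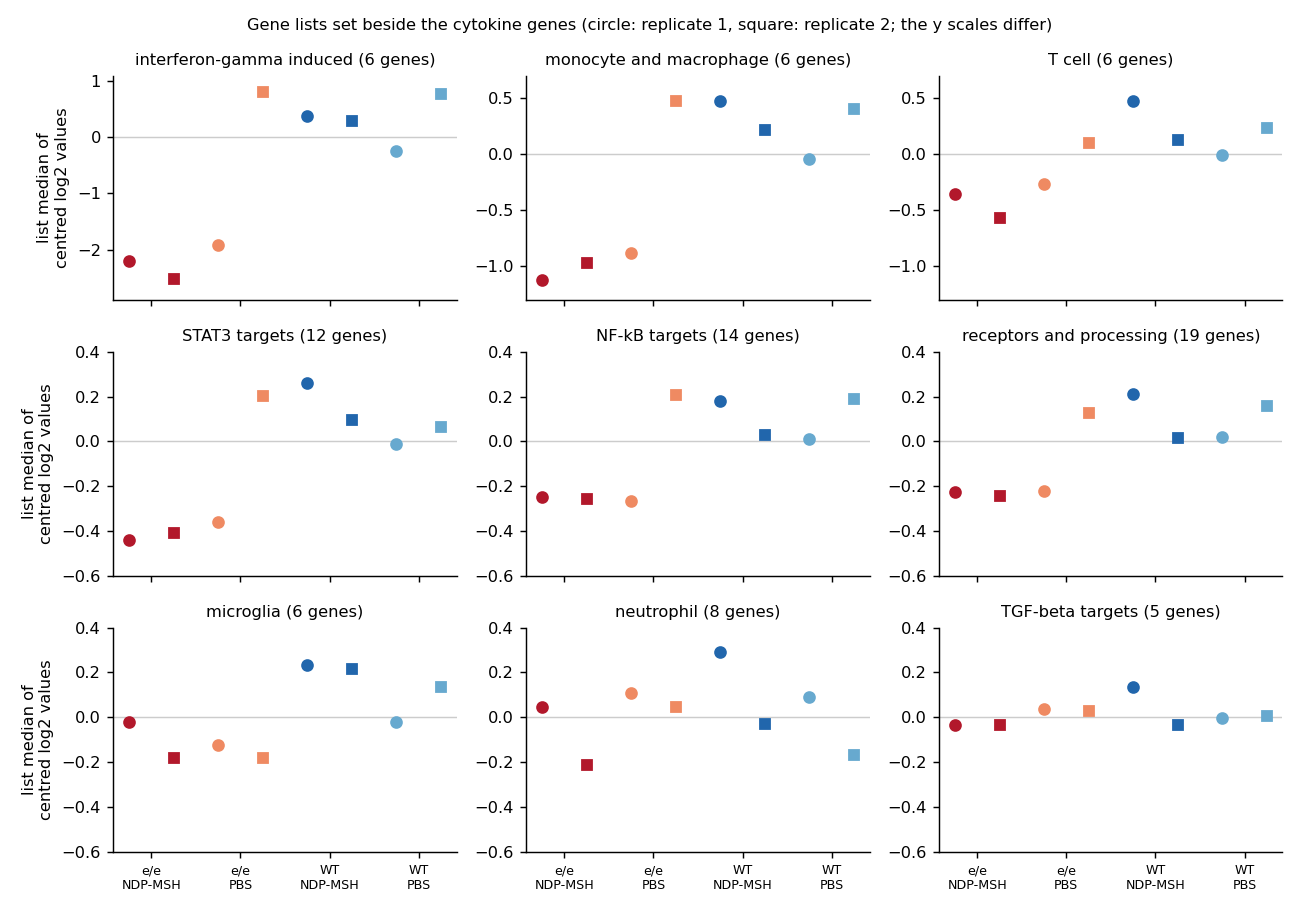
Median of the centred log2 values (y axis) over the genes of 9 lists (panels) in each array (x axis, by group), with circles for replicate 1 and squares for replicate 2. In the upper 6 panels both e/e NDP-MSH arrays and e/e PBS 1 lie below the other 5 arrays, and in the lower 3 panels they do not.

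Genes most like the 2 widest cytokine genes were sought by the root mean square (RMS) difference over the 8 arrays, each gene centred on its mean. For Il1b these were Ifi209, an interferon-activated gene, at 0.31, the chemokine gene Ccl12 at 0.36 and Ms4a6d, a membrane protein gene of myeloid cells, at 0.37, where Il1b itself deviated from its own mean by 1.08 (RMS). Among the cytokine genes Il1a was nearest to Il1b, at 0.60. For Il1a they were Cd3g, a T cell receptor complex gene, at 0.09, the leukocyte integrin gene Itgal at 0.16 and the Fc receptor gene Fcgr3 at 0.17, against a deviation of Il1a of 0.55. Cd3g had values of -0.98 and -0.80 in e/e mice given NDP-MSH, -0.69 and 0.44 in e/e mice given PBS, 0.79 and -0.02 in wild-type mice given NDP-MSH, and 0.02 and 0.23 in wild-type mice given PBS. Like Il1a, it was low in the same 3 e/e arrays and highest in wild-type NDP-MSH 1.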

How the data were processed

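Total brain RNA was converted to biotin-labelled cDNA and hybridised to Affymetrix whole-transcript arrays, per the labels' protocols. The deposited table gives 1 value for each of 33793 probe sets and 8 arrays. The values were taken as log2, but no label states the log base, summarisation, normalization or row filters that the authors used. Rows were found centred on their medians (largest absolute row median 5e-07). Array medians lay between -0.0043 and 0.0142. The number of arrays limits the precision, and slide and scan batches were not analysed here.

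Of the probe sets 23521 had 1 gene symbol in the platform annotation, 1814 had several, which were not used, and 8458 were unnamed here. Probe sets of a gene were averaged. The signal before centring was read from the single-precision step of the values, allowing 0.05 of a step beyond the rounding of the digits. limma 3.58.1 in R 4.3.3 fitted 1 coefficient per group over all 8 arrays (4 residual and 3.45 prior degrees of freedom), with two-sided moderated tests and Benjamini-Hochberg adjustment over 22180 genes at 0.05, and was tested on simulated data. Values are ± SE.

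The cytokine genes and all lists were chosen with earlier results of these data known. Every cytokine gene is named. From the receptor and target lists, genes past the threshold and the 2 smallest p in each list and comparison are named, and which of these are given array by array (Osmr, Lrg1, Cd3g) was chosen after their values were seen. For Il1b and Il1a, the 3 genes with the smallest RMS difference are named. Alternatives tried were a replicate block, array median centring, quantile normalization, array weights, robust moderation, fewer arrays, each probe set as its own feature and a minimum signal of 8. Plots used matplotlib 3.10.9 (Python 3.11.15).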

Additional observations from a re-analysis of the deposited data

How the results depend on the processing

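Over all genes, the wild-type NDP-MSH comparison called 39 genes and 14 with the replicate block, 20 after quantile normalization, 5 with only the 4 arrays compared, and 0 to 49 without 1 array (0 without wild-type PBS 2, 7 without wild-type NDP-MSH 1, 11 without wild-type NDP-MSH 2, 15 without wild-type PBS 1, 13 without either e/e NDP-MSH array). The e/e comparison called 0, and 0 to 51 without 1 array (51 without e/e PBS 1, 4 without e/e PBS 2). The e/e PBS against wild-type PBS comparison called 0, and 0 to 4 without 1 array (4 without e/e PBS 1). The difference of effects called 0, 1 after quantile normalization, 3 at a signal of 8 or above, and 0 to 7 without 1 array (7 without e/e PBS 1, 5 without wild-type NDP-MSH 2, 3 without e/e PBS 2, 1 without wild-type NDP-MSH 1). The comparison of the NDP-MSH groups called 75, and 26 after quantile normalization, 477 with only the arrays compared, 455 with a replicate block of crossed numbers, which was added after seeing the data, and 0 to 471 without 1 array (471 without either e/e PBS array, 0 to 19 without an NDP-MSH array). The count of cytokine genes was 0 in each comparison and stayed 0 except in the e/e comparison (0 to 1 without 1 array) and between the NDP-MSH groups (0 to 3 without 1 array, 2 with only the arrays compared, and 1, Il1a, with crossed numbers). The replicate block changed no call of a cytokine gene. Same-numbered arrays did not deviate together in every pair of groups (correlation of deviations -0.251 to 0.443). The main fit does not pair the samples by number, and 2 arrays per group cannot exclude a pairing between some groups. The causes were not tested, beyond the estimate of the spread changing with the arrays fitted.

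Of 770 values of single cytokine genes under the alternatives, 23 changed sign, all without 1 array and none past the threshold. In the wild-type comparison these were Tnf (-0.0055 to 0.20), Osm (-0.0705 to 0.0115) and Tgfb1 (-0.20 to 0.12). In the e/e comparison they were Il18 (-0.0751 to 0.20), Il1rn (-0.83 to 0.36), Tnf (-0.83 to 0.0849), Il6 (-0.23 to 0.0040) and Tgfb1 (-0.67 to 0.13). For e/e PBS minus wild-type PBS they were Il1a (-0.67 to 0.32), Il1b (-1.25 to 1.09), Il1rn (-0.68 to 0.51), Tnf (-0.64 to 0.27), Il18 (-0.10 to 0.17), Tgfb1 (-0.78 to 0.0234), Il6 (-0.0627 to 0.18) and Osm (-0.0171 to 0.0631). For the difference of effects they were Il1rn (-0.26 to 0.92) and Tgfb1 (-0.16 to 0.64), and between the NDP-MSH groups Lif (-0.15 to 0.0739). Where 1 array was left out its group kept 1, assumed to vary like the other groups. At a signal of 8 or above only Il18 and Il33 could be tested, and the lower signal of the other 8 limits small differences.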

Other observations

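The IL-1β gene and the gene of its antagonist did not move by equal amounts. The centred log2 value of Il1b minus that of Il1rn was -1.27 and -1.56 in e/e NDP-MSH 1 and 2, -0.59 and 0.56 in e/e PBS 1 and 2, 0.91 and 0.19 in wild-type NDP-MSH 1 and 2, and 0.28 and -0.31 in wild-type PBS 1 and 2. It ranged over 2.47 log2 units across the 8 arrays, against 3.02 for Il1b and 1.19 for Il1rn. Both e/e NDP-MSH arrays lay below the other 6, e/e PBS 1 included. These values show an unequal change within arrays and not that 1 of the genes stayed the same, and they were chosen after the values had been seen.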
